A study of Mus musculus with 8 samples.

Results

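The regions described here are the places on mouse chromosome 8 where CUT&RUN called a peak for the transcription factor YY1 or the histone acetyltransferase P300, without the window from 20 to 22 Mb (GRCm39), which is crowded with P300 peaks in all 4 P300 libraries. Peaks were merged per antibody where they shared at least 1 bp, which gave 1342 regions, 1094 for YY1 and 248 for P300, of 24909 regions on chromosomes 1 to 19, X and Y. They hold 2191 of 40220 peaks. The chromosome was chosen by a measured value, its share of YY1 peaks. Earlier results of these data showed that share to be lower in the mutant than in the wild type. Calling a peak depends on its reads and background, so the strength of the YY1 peaks is not independent of that choice. The YY1 difference between the genotypes is therefore given as a description with no test. The question was whether this difference ran along the whole chromosome, with both antibodies and in the strength of the peaks, as a check on a difference in copy number between the cell lines.

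All libraries came from the established mouse embryonic stem cell line E14TG2a, cultured with LIF, PD0325901 and CHIR99021. The groups were wild type (WT) and Alkbh5 del-cIDR, a deletion in the gene of an RNA demethylase (ΔcIDR below), with 2 libraries for each antibody and genotype and 8 in all. The labels do not say whether the ΔcIDR cells are 1 clone, or whether replicates came from separate cultures, so the spread between libraries may be technical. On chromosomes 1 to 19, X and Y, the length of the ΔcIDR lists was 9178 and 15531 peaks for YY1 and 1338 and 1304 for P300; the WT lists had 3527 and 5842 for YY1 and 1466 and 2487 for P300. Read totals are not given, and absence of a region from a list means only that no peak passed the authors' threshold there.

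YY1 is a zinc-finger protein that binds many promoters and takes part in contacts between enhancers and promoters. P300 acetylates histones and is mapped to find active enhancers. In CUT&RUN an antibody directs a nuclease to its target, and the released DNA is sequenced over a low background of fragments from the whole genome. That background, like the signal, can rise with the number of copies of a chromosome in the cells. Embryonic stem cell lines are known to gain or lose whole chromosomes in culture, trisomy 8 in mouse lines among them. The background given below is not that quantity itself. It is the local value against which each peak was called, solved at called peaks only, and it may stem from a control library. Copy number was not measured in these files, and its part in the differences below was not tested.

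Along the chromosome, YY1 peaks were densest in its middle part. The ΔcIDR libraries held 3.66 and 6.56 YY1 peaks per Mb and the WT libraries 1.76 and 2.73, which follows the length of the lists. The 10 Mb from 70 to 80 Mb held the most YY1 peaks, with 72 and 109 in ΔcIDR against 36 and 50 in WT, followed by 80 to 90 Mb with 60 and 111 in ΔcIDR against 32 and 56 in WT. Within these stretches the richest windows of 1 Mb were 70 to 71 Mb, with 29, 32, 13 and 18 peaks in ΔcIDR 1, ΔcIDR 2, WT 1 and WT 2, and 85 to 86 Mb, with 20, 31, 10 and 17.

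The third-richest stretch for YY1 was 100 to 110 Mb, with 43 and 79 peaks in ΔcIDR against 26 and 34 in WT. The fewest lay between 50 and 60 Mb, with 10 and 22 in ΔcIDR against 8 and 9 in WT. The first 10 Mb counted 20, 27, 9 and 14 YY1 peaks in ΔcIDR 1, ΔcIDR 2, WT 1 and WT 2, and 30 to 40 Mb counted 25, 39, 8 and 16. In every library the bins from 70 to 90 Mb were the richest, and 50 to 60 Mb was the poorest or tied for it.

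P300 peaks were sparser, at 0.481 per Mb in both ΔcIDR libraries and 0.674 and 1.22 in WT. Their densest 10 Mb was the stretch from 10 to 20 Mb, with 15 and 15 peaks in ΔcIDR against 14 and 25 in WT. Most of these lay against the edge of the crowded window: 19 to 20 Mb held 8, 12, 9 and 14 peaks in ΔcIDR 1, ΔcIDR 2, WT 1 and WT 2. The window of 1 Mb before it held 0, 0, 1 and 2, and the 1 Mb after the crowded window held 2, 0, 0 and 1.

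**Figure D1:**
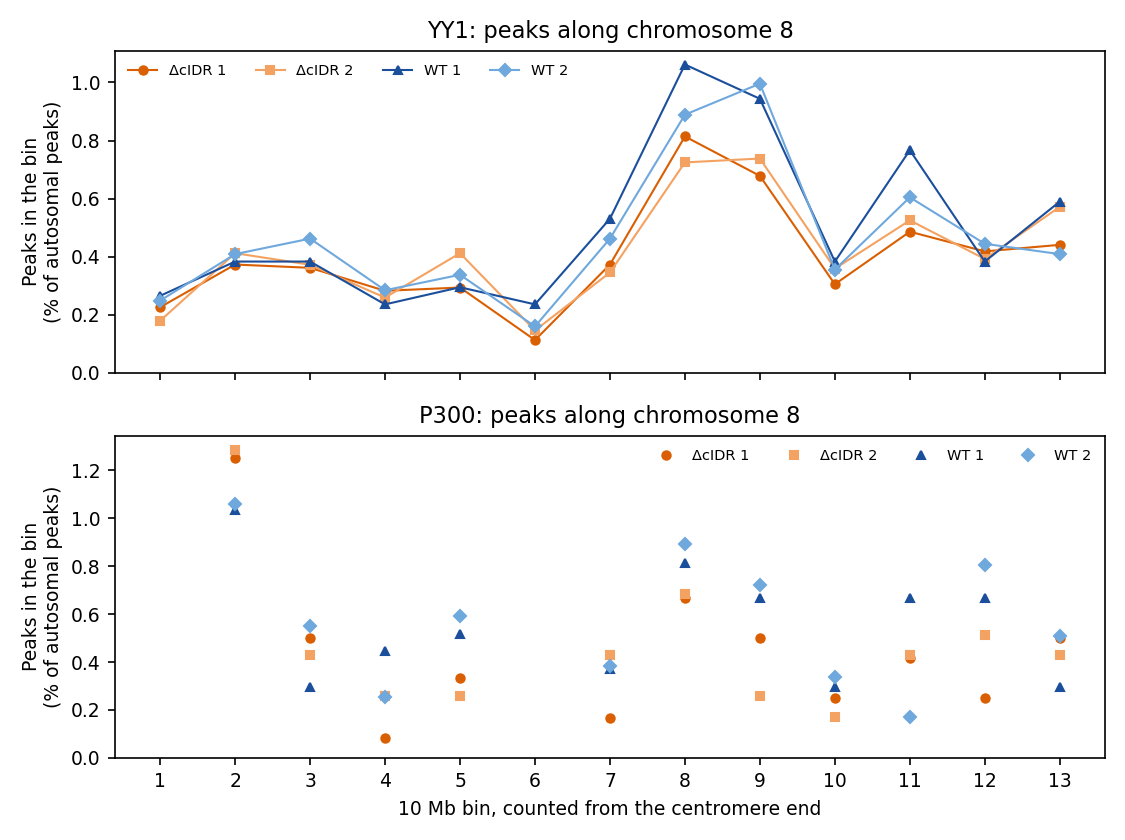
Peaks along chromosome 8 in 10 Mb bins (x axis, counted from the centromere end) as a percentage of each library's autosomal peaks (y axis), for YY1 above and P300 below, with 1 symbol per library. All 4 YY1 libraries rise at bins 8 and 9, where both WT libraries lie above both ΔcIDR libraries; P300 bins 1 and 6 held under 5 peaks and are left out.

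Chromosome 8 took a smaller part of the YY1 list in ΔcIDR than in WT. It held 457 of the autosomal YY1 peaks of ΔcIDR 1 (5.17%, Wilson 95% interval 4.72 to 5.65), 818 of ΔcIDR 2 (5.44%, 5.09 to 5.81), 219 of WT 1 (6.46%, 5.68 to 7.34) and 341 of WT 2 (6.06%, 5.47 to 6.72). Both ΔcIDR shares lay below both WT shares, although the interval of ΔcIDR 1 overlapped that of WT 2 and the interval of ΔcIDR 2 those of both WT libraries; intervals cover counting error only. The means were 5.30% ± 0.192 in ΔcIDR and 6.26% ± 0.279 in WT (SD, n = 2 each), a log2 difference of -0.24. This was the contrast that chose the chromosome.

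Among the 19 autosomes this YY1 difference was the second lowest, after chromosome 6 at -0.25, and the other 18 ranged from -0.25 to 0.23 with a median of 0.02. Both ΔcIDR libraries lay below both WT libraries on 5 of 19 autosomes (26.3%) and above them on 8 (42.1%). A gap between the genotypes without overlap was therefore common among the autosomes.

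P300 peaks did not choose the chromosome, but the window left out was marked by their crowding in these same libraries. Outside that window, chromosome 8 had a lower share of P300 peaks in ΔcIDR too. With the window kept the direction turned, as given below. Chromosome 8 held 60 P300 peaks in ΔcIDR 1 (5.01%, 3.91 to 6.39), 60 in ΔcIDR 2 (5.14%, 4.02 to 6.56), 84 in WT 1 (6.22%, 5.05 to 7.63) and 152 in WT 2 (6.45%, 5.53 to 7.52). The genotypes did not overlap, but the counting intervals did. The means were 5.07% ± 0.0941 in ΔcIDR and 6.33% ± 0.165 in WT (SD, n = 2 each), a log2 difference of -0.32. An exact permutation test (two-sided, 6 ways to assign 4 libraries) gave p = 0.333, the smallest value it can give, so the design cannot reach 0.05.

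For P300, 3 autosomes fell lower than chromosome 8, namely 1 at -0.44, 12 at -0.35 and 3 at -0.34, and the other 18 ranged from -0.44 to 0.43. The window was left out on chromosome 8 alone; when every autosomal window of 1 Mb with at least 10 peaks in each P300 library was left out, the chromosome 8 difference was -0.21 (exact permutation p = 0.333). Both ΔcIDR shares lay below both WT shares on 6 of 19 autosomes (31.6%). The share of P300 peaks on chromosome 8 thus did not stand apart from those on other autosomes. With the crowded window kept, the P300 difference turned to 0.16 (exact permutation p = 0.333), with 87, 88, 78 and 82 P300 peaks of ΔcIDR 1, ΔcIDR 2, WT 1 and WT 2 in the window alone.

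**Figure D2:**
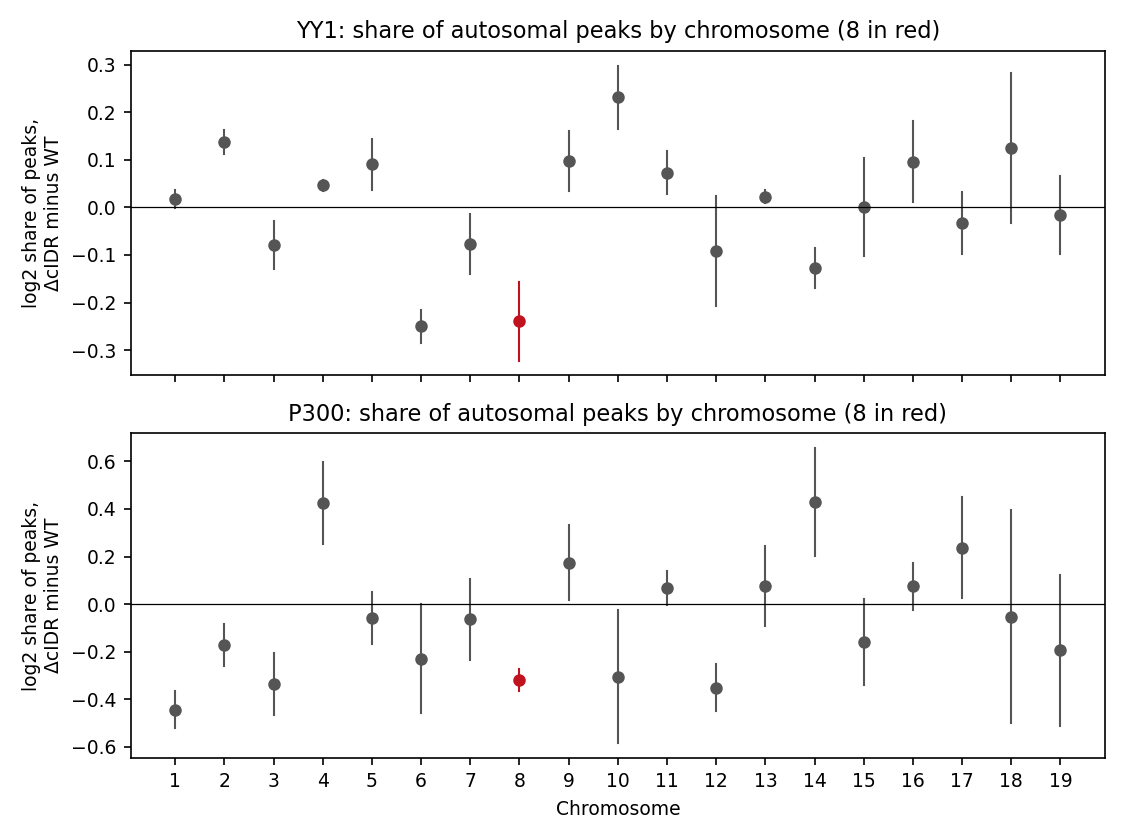
Log2 difference between the genotypes in the share of autosomal peaks on each autosome (y axis; x axis, chromosome), for YY1 above and P300 below; points are differences of the 2-library means and lines run from the smallest to the largest difference between any ΔcIDR and any WT library. Chromosome 8 (red) lies at -0.24 for YY1, beside chromosome 6 at -0.25, and at -0.32 for P300, where chromosomes 1, 12 and 3 lie lower.

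The YY1 difference on chromosome 8 was no smaller on lists of equal length. When the 3391 highest-ranked autosomal peaks of each library were compared, chromosome 8 held 171 in ΔcIDR 1 (5.04%), 182 in ΔcIDR 2 (5.37%), 219 in WT 1 (6.46%) and 222 in WT 2 (6.55%). The log2 difference was then -0.33, and it was -0.39 among peaks with a -log10 q of at least 5. In WT the chromosome 8 share was higher among peaks ranked above the library's median (6.96% in WT 1 and 6.51% in WT 2) than among those ranked below it (5.96% and 5.62%). In ΔcIDR 1 the share was 4.88% above the median rank and 5.45% below it, and in ΔcIDR 2 the values were 5.48% and 5.40%. For P300, the 1167 highest-ranked peaks of each library held 60, 60, 73 and 73 on chromosome 8, or 5.14% in both ΔcIDR and 6.26% in both WT libraries.

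**Figure D3:**
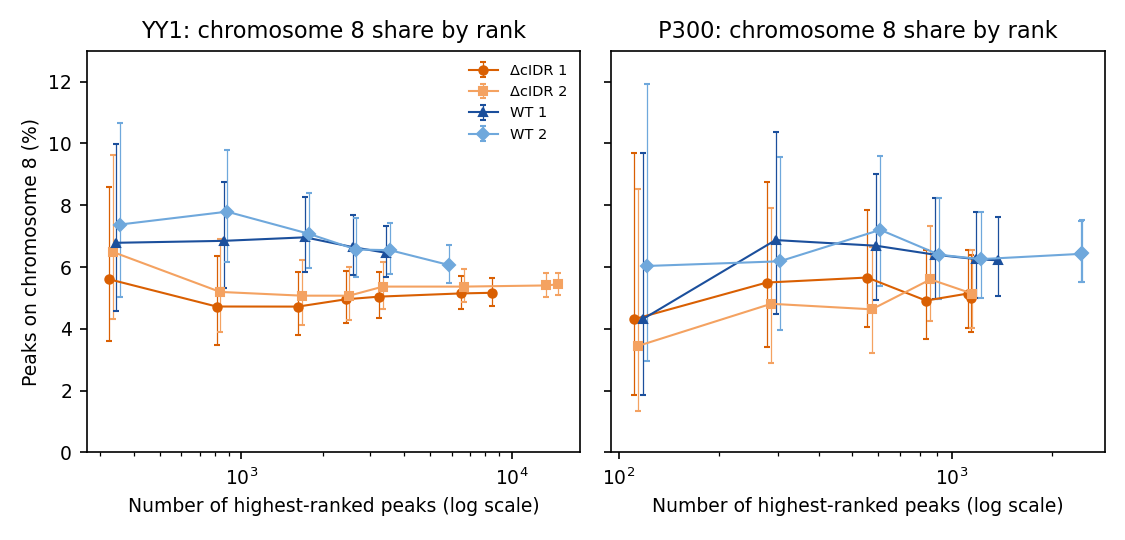
Share of chromosome 8 (y axis, %) among the highest-ranked autosomal peaks of each library (x axis, number of peaks taken, log scale) with Wilson 95% intervals, for YY1 at the left and P300 at the right. At 3391 YY1 peaks the ΔcIDR libraries lie at 5.04% and 5.37% and the WT libraries at 6.46% and 6.55%.

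The lower share was spread over much of the chromosome but not over all of it. Of 13 bins of 10 Mb, 7 (53.8%) had both ΔcIDR YY1 shares below both WT shares and 0 had them above; over all autosomes 54 of 255 bins (21.2%) were lower and 58 (22.7%) higher. These 7 bins were the first 10 Mb (log2 difference -0.35), 20 to 30 Mb (-0.20), all 4 bins from 50 to 90 Mb (-0.60, -0.46, -0.34 and -0.45) and 100 to 110 Mb (-0.43). The remaining 6 bins overlapped between the genotypes and ranged from -0.16 to 0.14. Chromosome 14 also had 53.8% of its bins lower, so chromosome 8 shared the highest percentage among the autosomes.

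For P300, 5 of 11 bins (45.5%) were lower in ΔcIDR and 1 was higher, beside 61 of 238 autosomal bins (25.6%) lower and 38 (16%) higher. The 5 lower bins were 40 to 50 Mb (-0.92), 70 to 80 Mb (-0.33), 80 to 90 Mb (-0.95), 90 to 100 Mb (-0.61) and 110 to 120 Mb (-1.03). These rest on 2 to 21 peaks per library, and on lists of equal length the count was 2. Chromosome 13 had a higher percentage of lower bins, 46.2%. The higher bin was 10 to 20 Mb (0.27), next to the crowded window, where ΔcIDR held 1.25% and 1.29% of its peaks and WT 1.04% and 1.06%. Only the bins from 70 to 90 Mb were lower with both antibodies. At 40 to 50, 90 to 100 and 110 to 120 Mb the genotypes overlapped in YY1 (0.14, -0.16 and -0.03). The other lower YY1 bins with a P300 value overlapped between the genotypes in P300 (0.20, -0.49 and 0.33). Agreement between the antibodies by bin was not tested.

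Within each list, chromosome 8 peaks stood a little higher in WT than in ΔcIDR. Their median percentile by -log10 q among all YY1 peaks of the library was 47.4 and 50.2 in ΔcIDR and 53.8 and 54.3 in WT, where the other autosomes had 49.7 and 49.7 in ΔcIDR and 49.2 and 49.5 in WT. Their median width was 267 and 220 bp in ΔcIDR, below the 279 and 227 bp of the other autosomes, and 306 and 289 bp in WT, above the 285 and 269 bp of the others. The authors' fold enrichment differed little, with medians of 4.99 and 5.00 on chromosome 8 in ΔcIDR and 5.15 and 5.13 in WT, beside 5.07, 5.01, 5.18 and 5.16 on the other autosomes.

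P300 peaks on chromosome 8 did not show this order, with median percentiles of 50.6 and 42.8 in ΔcIDR against 46.2 and 45.0 in WT.

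Reads at the summit and the local background were solved for nearly every peak from its -log10 p and fold enrichment, and both differed on chromosome 8. The median YY1 peak there had 10 and 8 reads in ΔcIDR, equal to the other autosomes (10 and 8), and 14 and 14 in WT, where the other autosomes had 12 and 12. The median background was 1.18 and 0.648 reads in ΔcIDR, beside 1.20 and 0.661 on the other autosomes. In WT it was 1.97 and 1.89 reads, beside 1.56 and 1.52. Chromosome 8 was thus level with the other autosomes in ΔcIDR and above them in WT.

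On the log2 scale, relative to the other 18 autosomes, the YY1 background of chromosome 8 lay at -0.02 and -0.03 in ΔcIDR and at 0.34 and 0.32 in WT. Single other autosomes had mean values of -0.22 to 0.16 in ΔcIDR and -0.19 to 0.16 in WT, so chromosome 8 lay inside that range in ΔcIDR and above it in WT. The difference between the genotypes was -0.35, the lowest of the 19 autosomes, with the next at -0.18 (chromosome 6) and the highest at 0.07. It comes from the YY1 libraries that chose the chromosome, so its rank is not separate support. On 3 of 19 autosomes (15.8%) both ΔcIDR values were below both WT values. For scale, 3 copies in place of 2 in every cell is a log2 ratio of 0.58. A male line such as E14TG2a carries a single copy of chromosome X, and 1 copy to 2 is a log2 ratio of -1. X lay at -0.48 and -0.41 in ΔcIDR and at -0.66 and -0.76 in WT. Of the X peaks, 23.8% and 26.9% in ΔcIDR and 35.7% and 39.4% in WT had the lowest background found in their library. On chromosome 8 this held for 8.53% and 7.21% in ΔcIDR and 6.39% and 5% in WT. This floor limits how low X can fall. X also differed by 0.27 between the genotypes without overlap, so it is no fixed scale.

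P300 gave the same order with a smaller difference. Its background on chromosome 8 lay at -0.02 and 0.02 in ΔcIDR and at 0.21 and 0.17 in WT. The difference was -0.20, with an exact permutation p of 0.333, the smallest possible. It was again the lowest of the 19 autosomes, but the others reached -0.17, and in WT other autosomes lay as high as 0.23 on average. Both ΔcIDR values were below both WT values on 3 of 19 autosomes (15.8%) and above them on 1 (5.26%). In P300, X lay at -0.02 and -0.11 in ΔcIDR and at -0.23 and -0.68 in WT, on 22 to 36 peaks per library. That difference, 0.39, was larger in size than the one of chromosome 8 and in the other direction.

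**Figure D4:**
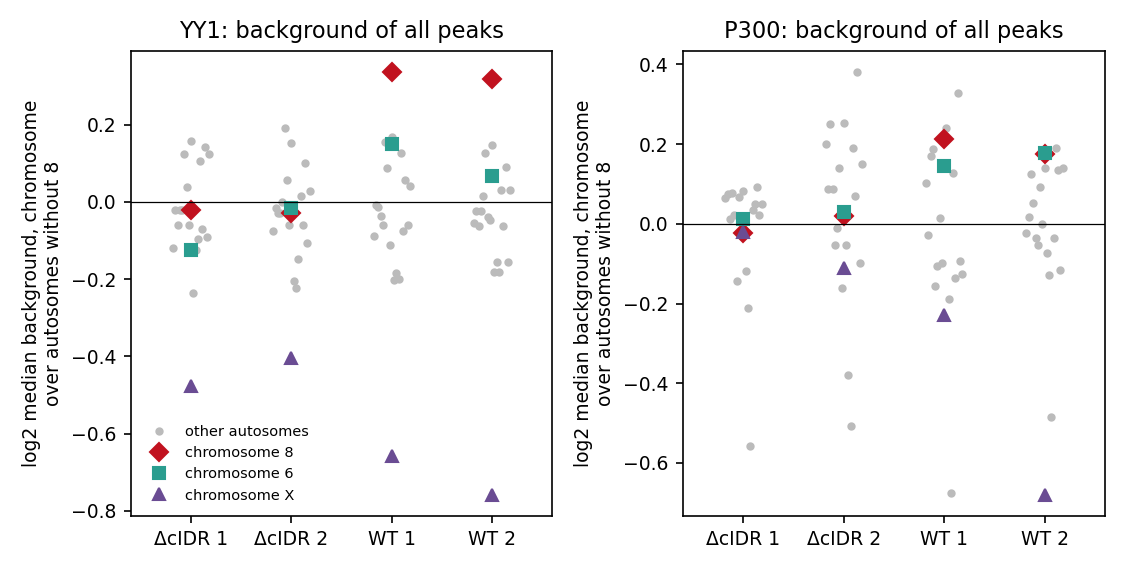
Median background of all peaks on each chromosome relative to the autosomes without 8 (y axis, log2), for each library (x axis), with YY1 at the left and P300 at the right; each symbol is 1 chromosome. In YY1, chromosome 8 (red diamonds) lies at -0.02 and -0.03 in ΔcIDR and at 0.34 and 0.32, above every other autosome, in WT; in P300 it lies at 0.21 and 0.17 in WT, within the other autosomes.

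The same regions could be followed through all libraries where each of the 4 held a peak. For YY1 these were 119 regions on chromosome 8, of which 118 could be solved, beside 1801 on the other autosomes. The median reads at the summit were 18 and 16 in ΔcIDR against 17 and 21 in WT on chromosome 8, and 19 and 17 in ΔcIDR and 15 and 17 in WT on the other autosomes. Relative to those, chromosome 8 lay at -0.08 and -0.09 on the log2 scale in ΔcIDR and at 0.18 and 0.30 in WT. Chromosome 17 lay at the same 0.18 and 0.30 in WT, and at 0.14 and 0.34 in ΔcIDR. The chromosome 8 difference was -0.33, the lowest of the 19 autosomes, where the others ranged from -0.19 to 0.10. As these libraries chose the chromosome, this rank is a description and not separate support. Both ΔcIDR values were below both WT values on 8 of 19 autosomes (42.1%). Without ΔcIDR replicate 1 the difference was -0.21.

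At these YY1 regions the background differed by -0.36, again the lowest, with chromosome 6 next at -0.31, and 5 of 19 autosomes (26.3%) were lower without overlap. The deposited fold, a ratio of reads to background, differed by -0.052, with values of -0.04 to 0.02 in the 4 libraries. Reads and background were thus lower by similar amounts, and the fold of the chromosome 8 regions by less. Only chromosomes 13 (-0.15) and 14 (-0.13) had a lower fold difference. Both ΔcIDR folds were below both WT folds on 3 of 19 autosomes (15.8%), chromosome 8 among them.

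The YY1 difference, in the libraries that chose the chromosome, was seen at most common regions. Relative to the median region of the other autosomes, the log2 difference in reads between the genotypes had a median of -0.29 over the 118 regions, with quartiles of -0.51 and -0.07, and 100 regions (84.7%) were below 0. On the other autosomes, taken 1 by 1, 35.7% to 68.6% of the regions were below 0. The background was below 0 at 112 of 118 regions (94.9%), beside 33.8% to 85.8% on the other autosomes, of which chromosome 6 was the highest.

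In steps of 20 Mb along the chromosome the median YY1 difference in reads was -0.50, -0.16, -0.31, -0.27, -0.31, -0.17 and -0.19, on 8, 13, 9, 30, 29, 22 and 7 regions. The background differed by -0.54, -0.35, -0.37, -0.40, -0.23, -0.28 and -0.32. Every step was negative for both measures. The reads at 20 to 40 Mb and the background at 80 to 100 Mb lay inside the range of the other autosomes' medians, which ran from -0.16 to 0.11 for reads and from -0.24 to 0.09 for background; chromosome 6 was the lowest in both.

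The region furthest down was chr8:99426033-99426585, with 7 and 8 reads in ΔcIDR and 16 and 20 in WT, a relative log2 difference of -1.36. The next was chr8:81606645-81607585, with 10 and 6 reads in ΔcIDR and 12 and 21 in WT (-1.13). At the other end, chr8:70243401-70244459 had 32 and 30 reads in ΔcIDR and 26 and 23 in WT (0.24). These regions were chosen after their values were seen, as the extremes of the distribution.

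**Figure D5:**
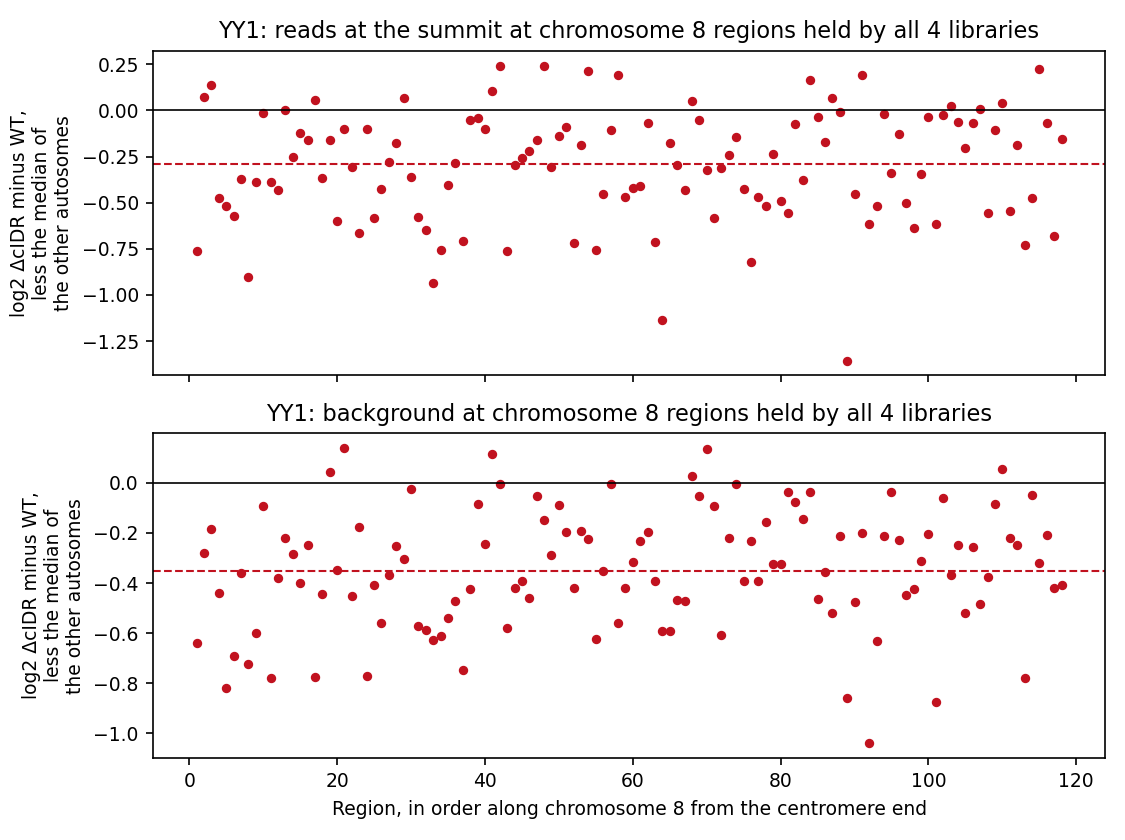
Log2 difference between ΔcIDR and WT at the 118 chromosome 8 regions held by all 4 YY1 libraries, less the median over the common regions of the other autosomes (y axis), in their order along the chromosome (x axis); each point is 1 region, with reads at the summit above and background below, and the dashed line is the median. Points below 0 number 100 for reads and 112 for background, and they run from 1 end of the chromosome to the other.

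P300 had 17 regions held by all 4 libraries, of which 16 were solved, beside 190 on the other autosomes. Relative to those, the reads on chromosome 8 lay at -0.24 and -0.44 in ΔcIDR and at 0.14 and 0.10 in WT. The difference was -0.46 (exact permutation p = 0.333, the smallest possible), the lowest of the 19 autosomes, where the others ranged from -0.28 to 0.51 and 6 of 19 (31.6%) were lower without overlap. Taken region by region, as for YY1, the relative log2 difference in reads had a median of -0.30 over the 16 regions, with quartiles of -0.52 and -0.08. Single other autosomes had medians of -0.18 to 0.45. The reads were below the other autosomes' median difference at 12 of the 16 regions (75%) and the background at 14 (87.5%). The other autosomes, taken 1 by 1, had 20% to 81.3% of their P300 regions below 0 for reads and 16.7% to 88.9% for background, so chromosome 8 lay inside both ranges. Of these regions 5 lay between 19 and 20 Mb, against the crowded window, and without them the difference was -0.62.

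The size of the P300 value depended on the measure and the regions taken. It was -0.19 for the background, where 6 of 19 autosomes (31.6%) were lower without overlap, and -0.18 for the deposited fold. Chromosome 8 was the second lowest autosome in both, after chromosome 9 (-0.22) for the background and chromosome 16 (-0.22) for the fold. The difference in reads was -0.29 with the mean in place of the median and -0.22 over regions held by at least 1 library of each genotype. It lay between -0.61 and -0.33 when 1 library was left out. With 16 regions, the settings shared the direction and differed in size.

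By presence, most chromosome 8 regions were called in a single library. For YY1 these were 710 of 1094 (64.9%, beside 65.7% on the other autosomes), 451 of them in ΔcIDR 2, the longest list. A further 119 (10.9%, Wilson 95% interval 9.17 to 12.9) were in all 4 libraries, beside 9.69% over all autosomes. Both ΔcIDR libraries and no WT library held 86 regions (7.86%, 6.41 to 9.61), beside 9.13% over all autosomes and 7.98% to 10.7% on the other 18. Chromosome 8 had the lowest percentage, but its counting interval held the percentage over all autosomes. The YY1 lists chose the chromosome, so this rank is a description and not separate support. Both WT libraries and no ΔcIDR library held 4 regions (0.366%), beside 0.276% over all autosomes.

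These counts followed the libraries that defined them. The 86 ΔcIDR-only YY1 regions rose in number to 539 when ΔcIDR replicate 1 was left out, to 234 without ΔcIDR replicate 2, and to 147 when WT replicate 2 was left out. The 4 WT-only YY1 regions became 87 without WT replicate 1, 39 without WT replicate 2 and 19 without ΔcIDR replicate 2. On lists of equal length the counts were 9 ΔcIDR-only and 14 WT-only regions, so which genotype had more regions of its own turned with the length of the lists.

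The overlap of YY1 regions between the genotypes differed a little from that elsewhere. Of the 140 chromosome 8 regions held by both WT libraries, both ΔcIDR libraries held 119 (85.0%, Wilson 95% interval 78.2 to 90.0), beside 89.4% on the other autosomes, of which the lowest had 85.2%. Of the 287 held by both ΔcIDR libraries, both WT libraries held 119 (41.5%, 35.9 to 47.2), beside 35.1% elsewhere, of which the highest had 40.3%. Chromosome 8 was thus at the edge of the autosomes in both directions, by margins smaller than its counting intervals.

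For P300, 191 of 248 regions (77.0%, beside 75.6% on the other autosomes) were in a single library and 17 (6.85%, beside 5.41% over all autosomes) in all 4. The ΔcIDR-only class held 1 region (0.403%, beside 1.28% over all autosomes) and the WT-only class 10 (4.03%, beside 4.29%). At least 1 WT library held 79.8% of the chromosome 8 regions, the highest of the autosomes, of which the others ranged from 66.7% to 77.4%. At least 1 ΔcIDR library held 38.7%, beside 46.2% elsewhere. The 10 WT-only regions became 109 without WT replicate 1, 53 without WT replicate 2 and 17 without ΔcIDR replicate 2, and the 1 ΔcIDR-only region became 2 without WT replicate 1, 4 without WT replicate 2 and 26 without either ΔcIDR replicate.

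Among the YY1 regions of all 4 libraries the strongest by rank was chr8:19834551-19835136. The authors' fold there was 32.4 and 38.8 in ΔcIDR and 28.5 and 31.7 in WT. Reads were 173 and 168 in ΔcIDR and 166 in WT 1, and could not be solved in WT 2. The next, chr8:71326184-71326619, had 81 and 82 reads in ΔcIDR and 74 and 95 in WT, so the genotypes overlapped there. The others in rank order were chr8:70077924-70078397, chr8:75835356-75836400 and chr8:70227334-70227716, with folds from 9.59 to 18.5. In all 5 the libraries of both genotypes ranked the region near the top of their lists, at mean percentiles of 97.9 to 99.8.

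The best-ranked ΔcIDR-only YY1 regions were weaker. The highest-ranked, chr8:108315028-108315391, had folds of 7.32 and 7.53 on 17 and 14 reads. The second, chr8:54044736-54045044, had folds of 6.66 and 9.33 on 12 and 15 reads. Next came chr8:112030749-112031127, chr8:34090042-34090490 and chr8:4727405-4727983, with 10 to 22 reads. They stood at mean percentiles of 76.0 to 85.6, in the upper part of the ΔcIDR lists.

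The 4 WT-only YY1 regions lay near the authors' threshold. They were chr8:65856447-65856652, with 8 reads in both WT libraries, chr8:65775779-65776304, chr8:41834590-41834997 and chr8:106198158-106198439, with 6 to 12 reads. Their mean percentiles were 13.6 to 26.1, so none ranked high in a WT list.

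Among P300 regions of all 4 libraries, chr8:99513359-99513518 had the highest rank, with the fold at 46.3 (ΔcIDR 1), 37.5 (ΔcIDR 2), 39.0 (WT 1) and 41.8 (WT 2), so the genotypes overlapped. It was followed by chr8:15569814-15570060, with 66 and 87 reads in ΔcIDR and 72 and 59 in WT. The next were chr8:23585499-23585675, chr8:19834562-19835110 and chr8:19756922-19757718, the last pair beside the crowded window. The single ΔcIDR-only P300 region, chr8:112407304-112407495, had 12 and 11 reads.

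The highest-ranked WT-only P300 region, chr8:87614894-87615237, had folds of 6.35 and 5.22 on 20 and 17 reads. It was followed by chr8:27730720-27731006, chr8:33157835-33158061, chr8:70991964-70992144 and chr8:41834768-41835024, with 11 to 18 reads. These 5, the best-ranked of 10, stood at mean percentiles of 41.5 to 77.8, and the rest of the class ranked no higher.

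The percentage of YY1 regions that met a P300 region, and the reverse, was slightly above that of the other autosomes, just outside the counting interval, when all regions were taken; this difference was not tested. A P300 region overlapped 103 of 1094 YY1 regions (9.41%, Wilson 95% interval 7.82 to 11.3), beside 7.56% on the other autosomes, and a YY1 region overlapped 106 of 248 P300 regions (42.7%, 36.7 to 49.0), beside 35.9%. Among regions of all 4 libraries the order was the reverse, with 3 of 119 YY1 regions (2.52%, 0.861 to 7.15) beside 3.31% elsewhere and 3 of 17 P300 regions (17.6%, 6.19 to 41.0) beside 28.8%. All 8 libraries held 3 regions, chr8:19756922-19757871, chr8:19834551-19835136 and chr8:86199342-86200082, of which the first pair lies beside the crowded window. At the third, away from the window, YY1 had 16 and 21 reads in ΔcIDR and 20 and 30 in WT, and P300 had 18 and 21 in ΔcIDR and 22 and 26 in WT. Only chr8:41834590-41835024 was WT-only with both antibodies, with YY1 folds of 4.23 and 4.07 and P300 folds of 3.89 and 4.53, and no region was ΔcIDR-only with both.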

How the data were processed

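The chromosome, the comparisons and the lists were chosen with earlier results of these data known. The data are 8 peak lists, 1 per library, so replicates were not pooled. Per the submitters' processing notes, MACS2, BWA, fastp, featureCounts, Picard and SAMtools were run on the build GRCm39, without roles or versions; use of a control library was not given in the sources used here. The authors deposited for each peak a score, a fold enrichment (a ratio of summit reads to local background), a -log10 p, a -log10 q and a summit position. Peaks on other sequences than chromosomes 1 to 19, X and Y (0.563% to 8.75% of a list) were left out.

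Reads and background were solved from the deposited fold, taken as reads plus 1 over background plus 1, and the deposited -log10 p, taken as a Poisson tail; at least 99.97% of the peaks tried gave whole reads within rounding, and 11 to 28 peaks per list with a -log10 p of 250 or more were not tried. The background may stem from a control library. The solving step was tested on simulated data. A share is the chromosome's peaks over all autosomal peaks outside the window, and differences are mean ΔcIDR minus mean WT on the log2 scale. A peak belongs to the bin that holds its summit, and bins with under 5 peaks over the 4 libraries were left out. Regions named are the 5 of each presence class that ranked best by -log10 q (mean percentile in the lists holding them), and those held with both antibodies in all libraries or in 1 genotype alone. Background over all peaks, differences within regions, shares by rank and the overlap between genotypes were added after the data were seen. At most 24 intervals were equal between any pair of lists. Python 3.11.15, numpy 2.4.6, pandas 2.3.3, SciPy 1.17.1 and matplotlib 3.10.9 were used. No sequence or gene is given, as neither genome nor annotation of GRCm39 was at hand.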

Additional observations from a re-analysis of the deposited data

How the results depend on the processing

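Read totals are unknown and 2 libraries per group allow no p under 0.333, so sizes below are values, not tests. The YY1 log2 difference in share (-0.24) became -0.39 at a -log10 q of at least 5, -0.33 on lists of equal length and -0.33 with the window kept, and -0.28 to -0.19 with 1 library left out; the P300 difference (-0.32) reversed to 0.16 with the window kept and was -0.35 to -0.29 with 1 library left out. The lower YY1 bins (7) were 4 at 20 Mb, 12 at 5 Mb and 7 to 10 with 1 library left out; those of P300 (5) were 2 on lists of equal length and 5 to 7. YY1 summit reads (-0.33) differed by -0.26 at a -log10 q of at least 5, -0.052 for the deposited fold, -0.24 without regions of both antibodies and -0.33 to -0.21 with 1 library left out; P300 reads (-0.46) kept their direction, at -0.61 to -0.33 with 1 library left out. YY1 regions of ΔcIDR only were 9 on lists of equal length and 104 to 539 with 1 library left out, those of WT only 14 on lists of equal length, 8 with the window kept and 6 to 87. P300 regions of WT only were 6 where 100 bp had to be shared, 4 on lists of equal length and 14 to 109; those of ΔcIDR only were 2, 2 and, with the window kept, 4, and 2 to 26. Causes were not tested. The replicate block left the differences at -0.24, -0.32, -0.33 and -0.46, with a sign-flip p of 0.5, the smallest of an exact test, for P300; the labels do not say that numbers mark shared batches (r between the genotypes' deviations over 19 autosomes 0.15 for YY1 and -0.40 for P300). With the P300 numbers crossed, both pairs were again lower in ΔcIDR. Chosen after seeing the data were the crossed pairing, regions above the lowest background, means, regions of at least 1 library per genotype, and leaving out 19 to 20 Mb.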
